A study of Mus musculus with 8 samples.

Results

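The genes of the cytosolic ribosomal proteins were followed in single cells of the mouse kidney after ischemia-reperfusion injury (IRI), with and without entospletinib, an inhibitor of the kinase SYK. They were chosen by name, as *Rps* or *Rpl* followed by a number with at most a short suffix, together with *Rpsa*, *Rplp0*, *Rplp1* and *Rplp2*, without pseudogenes marked -ps and without the S6 kinases. The rule gave 90 of 57010 genes, 54 named for the large and 36 for the small subunit, and used no measured value. Of these, 84 are annotated as protein coding and the others, *Rps4l*, *Rpl6l*, *Rps3a2*, *Rps12l1*, *Rps3a3* and *Rpl32l*, as processed pseudogenes that are not marked -ps. Another 336 genes with names starting in *Rps* or *Rpl* were not members.

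The study asked how SYK inhibition changes the kidney and its immune cells after injury. Male C57BL/6 mice had the left renal pedicle clamped and released, and received an intraperitoneal injection of entospletinib or of the vehicle DMSO before IRI. For mice taken at day 1 that was the only dose. In the rest, dosing went on each day through day 7 and on alternate days after that, up to day 14. There were 7 conditions, an untouched control and either vehicle or entospletinib at days 1, 7 and 14. The control pool came from mice whose kidneys were not operated on. Cells from 3 mice were pooled for every condition and sorted by FACS for live leukocytes by scatter, so no comparison of single conditions has biological replicates. Cells of each pool went into 6 (control) or 7 wells in the first barcoding round, and all pools were then divided over the same 8 sublibraries. Wells and sublibraries are portions of 1 pool and measure technical error only.

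The cytosolic ribosome is built from ribosomal RNA and a single copy of most of these proteins, so their mRNAs are needed in matched amounts and belong to the most abundant of many cells. Most of them start with a cytosine followed by a run of pyrimidines, the 5′ terminal oligopyrimidine (TOP) element, through which mTOR signaling and the binding protein LARP1 set their translation and stability. They are short and highly expressed in lymphocytes, and their share of a cell's transcripts is used as a quality measure in single-cell work. The study left out cells with 1.5% or more ribosomal counts. That limit was not applied here, since it acts on the measured quantity.

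Of 120281 barcodes, 90855 (75.5%) passed the limits on genes, counts and mitochondrial share, with 265463214 transcripts in all and 15204925 to 77403258 per condition. Depth per cell differed between pools. The median was 2055 to 2928 counts in 6 of the conditions and 933 in entospletinib, day 14. The same combination of barcoding wells occurred in more than 1 sublibrary for 13712 of 105340 combinations. In sublibrary s7 the ribosomal protein genes took 0.851% of counts, against 0.725% to 0.766% in the other 7, and each condition was spread over all 8 sublibraries.

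Cells were placed into classes by markers and are called X-like. A cell needed transcripts of at least 2 of 8 markers of a class and more than of any other class. The gate left 14468 cells (15.9%) in no class, 4851 of them because of a tie. Of the 10 leading genes of each gated class, 3 to 6 were markers of that class and none marked another. Among the 29607 macrophage-like cells, led by *C1qa*, *C1qb* and *C1qc*, 29.4% also held at least 2 markers of another class. No doublet caller was run.

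Of the 90 members, 78 reached a mean of 20 CPM (counts scaled so that all genes of a condition sum to the same total) over the 7 conditions and 12 did not. No transcript was seen for 2 of those 12, *Rps3a3* and *Rpl32l*, and 1 to 10 transcripts for 3 more. The large subunit genes held 56.4% of all member counts, and the ratio of large to small subunit counts lay between 1.23 and 1.35 in every condition. The 10 members with the highest CPM held 27.1% of member counts. *Rpl4*, whose protein lines the exit tunnel of the large subunit, led with a mean of 337 CPM, before *Rpl13a* with 250 CPM and *Rpl21* with 240 CPM. *Rps9*, *Rps12*, *Rps4x*, *Rpl23*, *Rpsa* and *Rps3* were also among the 10, with 174 to 205 CPM. Divided by exon length, the order changed. The highest levels were then those of the stalk protein gene *Rplp1* (178 CPM per kb), *Rps15* (175 CPM per kb) and *Rpl4* (168 CPM per kb).

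Some members share reads with near-identical copies. Genes marked as pseudogenes or retrotransposed copies of members, 324 in all, held 64820 counts, which equals 3.19% of the members' counts. *Rpl9-ps6* (80.7 CPM) and *Rpl37rt* (63.3 CPM) were as high as *Rpl9* (76.9 CPM) and *Rpl37* (62.8 CPM), so the levels of these 4 genes are uncertain one by one. *Rpl10* is uncertain for the same reason. *Rps4l* lies within *Tmtc1* on the opposite strand and is annotated as a transcribed processed pseudogene, and its 1017 counts may include reads of that gene.

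The region around the annotated start was read for the 65 members with an entry in the RefSeq promoter table (GRCm38.p6). A pyrimidine run was defined as a C followed by at least 4 bases that are each C or T, read on the sense strand only, within 20 bases on either side of the start. It was found in 51 of 65 members (78.5%) and in 49.9% of 27025 genes. A run of at least 8 bases was found in 31 members (47.7%) and in 14.5% of all genes, and a C at the annotated start itself followed by at least 4 such bases in 14 members (21.5%) and in 3.01% of all genes. The 8 windows printed here belong to members whose values differ in the comparisons that follow and are written 5′ to 3′ on the gene's strand, with the longest pyrimidine run in capitals and any shorter run in lower case.
*Rplp2*, chr7:141447631-141447670, plus strand: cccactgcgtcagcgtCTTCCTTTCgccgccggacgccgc
*Rpl12*, chr2:32961692-32961731, plus strand: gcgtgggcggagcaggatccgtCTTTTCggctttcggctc
*Rps23*, chr13:90923102-90923141, plus strand: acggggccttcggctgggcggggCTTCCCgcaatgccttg
*Rps21*, chr2:180257359-180257398, plus strand: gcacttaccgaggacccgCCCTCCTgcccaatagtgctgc
*Rps27*, chr3:90213629-90213668, minus strand: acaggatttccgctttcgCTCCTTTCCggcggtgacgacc
*Rplp0*, chr5:115559447-115559486, plus strand: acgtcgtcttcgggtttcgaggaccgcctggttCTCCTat
*Rpl10a*, chr17:28328451-28328490, plus strand: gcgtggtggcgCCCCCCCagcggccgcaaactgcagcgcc
*Rps6*, chr4:86857348-86857387, minus strand: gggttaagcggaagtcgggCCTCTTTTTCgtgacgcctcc
The longest run covers the start in *Rplp2*, *Rps21*, *Rps27* and *Rps6* and does not in the other 4. A match describes these letters only, and no RNA start was measured.

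The first comparison asked what share of all transcripts the members took in each condition. In all cells the share was higher with entospletinib than with vehicle at each of the 3 days. It was 0.623% ± 0.0267 in the control (SD over 8 sublibraries, as for the following values). The vehicle pools had 0.746% ± 0.0405 at day 1, 0.625% ± 0.0285 at day 7 and 0.631% ± 0.0275 at day 14. The entospletinib pools had 1.12% ± 0.0705, 0.809% ± 0.0331 and 0.989% ± 0.054 at the same days. All 3 entospletinib pools thus stood above all 3 vehicle pools and the control. Entospletinib exceeded vehicle by a log2 ratio of 0.59 ± 0.02 at day 1, 0.37 ± 0.05 at day 7 and 0.65 ± 0.04 at day 14, with the same direction in 8 of 8 sublibraries at each day. These sums cannot tell fewer cells of a type from less RNA per cell.

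Over the 3 same-day pairs the mean log2 ratio was 0.54 (SD 0.14), higher in 3 of 3 pairs. A two-sided exact sign-flip permutation test gave p = 0.25, the smallest p that 3 pairs can give. The spread over first-round wells was wider than that over sublibraries. Wells ranged from 0.536% to 0.737% in the control, from 0.615% to 1.01% in vehicle, day 1, and from 0.874% to 1.39% in entospletinib, day 1. At day 7 they ranged from 0.510% to 0.896% with vehicle and from 0.732% to 0.897% with entospletinib. At day 14 they ranged from 0.565% to 0.740% with vehicle and from 0.876% to 1.32% with entospletinib. Wells of the 2 treatments overlapped at days 1 and 7 and did not at day 14.

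**Figure D1:**
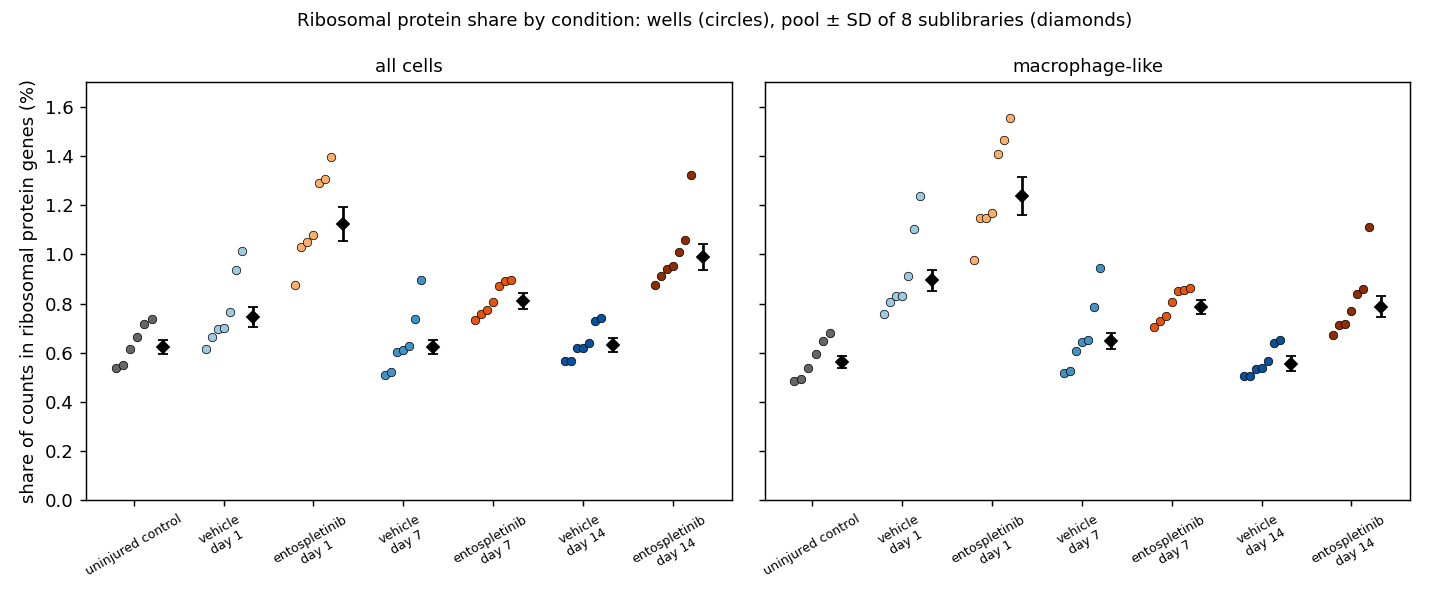
Share of counts in the 90 ribosomal protein genes (%, y axis) by condition, in all cells (left) and macrophage-like cells (right). Circles are first-round wells and diamonds the pools with the SD over 8 sublibraries; in all cells the entospletinib pools stand at 0.809% to 1.12% and the vehicle pools at 0.625% to 0.746%.

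In macrophage-like cells the share was 0.561% ± 0.0233 in the control. The vehicle pools had 0.894%, 0.648% and 0.555% at days 1, 7 and 14, and the entospletinib pools 1.24%, 0.786% and 0.787%. The 3 log2 ratios between them were 0.47 ± 0.04, 0.28 ± 0.09 and 0.50 ± 0.05, positive in all 8 sublibraries at each day. The exact permutation test over the 3 pairs again gave p = 0.25, with a mean log2 ratio of 0.42 (SD 0.12). Between vehicle and control, a log2 ratio of 0.67 ± 0.07 was seen at day 1, where the wells did not overlap. It was 0.21 ± 0.04 at day 7 and -0.02 ± 0.05 at day 14. The summed markers of monocytes and neutrophils in the macrophage-like cells were also above the control, and those of B cells below it. The 8 monocyte markers summed to 280.3 CPM in the control and to 1468, 667 and 557 CPM in the vehicle pools of days 1, 7 and 14, and the 8 neutrophil markers to 117 CPM and to 316, 180.4 and 256 CPM. The 8 B cell markers summed to 277 CPM in the control and to 103, 205 and 262 CPM with vehicle. Markers of dendritic cells went from 156 to 35.6, 78.3 and 135 CPM and those of T cells from 48.2 to 17.3, 16.9 and 51.4 CPM. Proximal tubule markers went from 188 to 69.8, 46.6 and 57.6 CPM and loop of Henle markers from 123 to 48.9, 48.9 and 50.0 CPM. Those of the distal tubule or collecting duct went from 128 to 65.5, 23.9 and 32.8 CPM. The 5 red blood cell genes went from 4.61 to 49.2, 11.9 and 3.71 CPM. The part of these in the ratios was not tested. In all cells the same ratio was 0.26 ± 0.04 at day 1, with overlapping wells, and within its technical spread at days 7 and 14. These 3 comparisons share the control pool.

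Depth moved with the share. Among the wells of 1 condition, the share was lower where the median counts per cell were higher, with a slope of -0.77 (log2 share on log2 depth, within-condition r -0.879 over 48 wells) in all cells and -0.79 in macrophage-like cells. The slope was negative in all 7 conditions, from -0.56 in entospletinib, day 7 to -0.90 in entospletinib, day 1. It is a description of wells that share a pool and a plate, with no test. Gene by gene it was negative in 77 of 78 members with a median of -0.80, against a median of -0.12 over 6578 genes, of which 68.2% were negative. Members thus followed the depth of the well more steeply than the median gene. Macrophage-like cells grouped by their own depth did not all follow this. From the range of 1000 to 2000 counts to that of 8000 to 20000, the share went from 0.535% to 0.621% in the control. In vehicle, day 1 it went from 1.04% to 0.831%.

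Set to equal well depth with that slope, entospletinib over vehicle came to a log2 ratio of 0.26, 0.45 and -0.40 in all cells at days 1, 7 and 14. In macrophage-like cells it came to 0.12, 0.36 and -0.58. The direction was kept at days 1 and 7 and turned at day 14. At day 14 the median counts per cell were 755 to 1104 in the entospletinib wells and 1748.5 to 2794 in the vehicle wells, so the value there extends the slope beyond the wells of either pool. Cells of like depth were also compared among macrophage-like cells. At day 14 the share was 0.713% in 1802 cells with entospletinib and 0.660% in 497 with vehicle at 300 to 1000 counts, 0.763% (1359 cells) against 0.568% (1935 cells) at 1000 to 2000 counts, and 0.923% (311 cells) against 0.525% (3603 cells) at 2000 to 4000 counts. At day 7 it was 0.657% against 0.648% at 1000 to 2000 counts and 0.756% against 0.673% at 2000 to 4000 counts, and at day 1 it was 1.31% against 1.04% and 1.23% against 0.975%. Equal well depth and cells of like depth thus gave opposite directions at day 14, with the smallest gap there in the range that held most entospletinib cells.

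**Figure D2:**
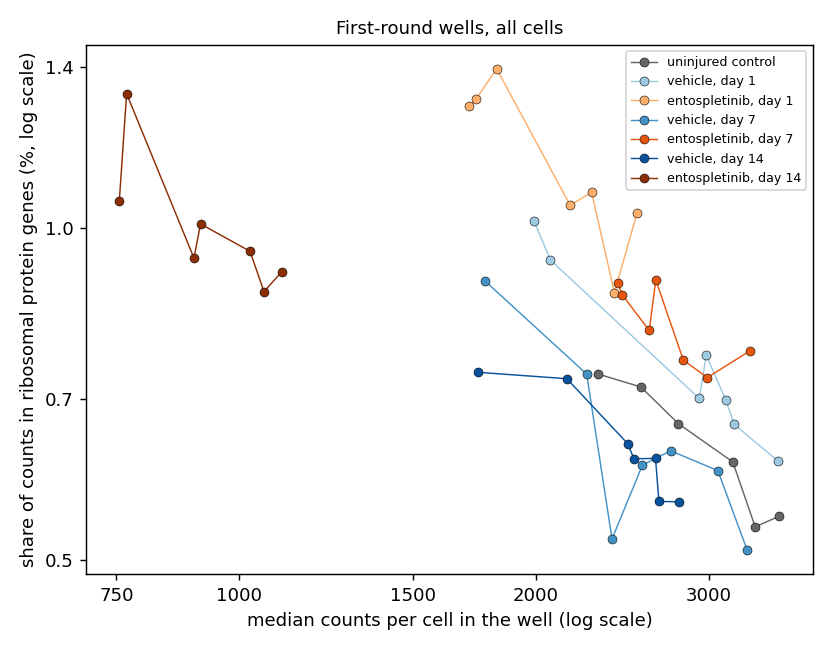
Share of counts in the ribosomal protein genes (%, log scale, y axis) against the median counts per cell (log scale, x axis) in the 48 first-round wells, colored by condition. The share falls with depth within each condition, and the entospletinib, day 14 wells lie at 755 to 1104 counts per cell, below all vehicle, day 14 wells.

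Other measures of the libraries moved as well. Nuclear-retained long RNA, led by *Malat1*, took 3.01% of counts in entospletinib, day 7 against 1.84% in vehicle, day 7, 3.11% against 1.97% at day 14, and 2.54% against 2.62% at day 1. Mitochondrial transcripts took 3.80% against 3.34% at day 1, 7.77% against 6.17% at day 7 and 5.81% against 6.41% at day 14. In macrophage-like cells the summed level of 8 proximal tubule markers was 128 CPM in entospletinib, day 14 against 57.6 CPM in vehicle, day 14, higher for 8 of 8 markers. For 8 loop of Henle markers it was 133 against 50.0 CPM (7 of 8 higher) and for 8 markers of the distal tubule or collecting duct 105 against 32.8 CPM (8 of 8 higher). At day 7 these 3 sums were 93.0, 104 and 73.2 CPM against 46.6, 48.9 and 23.9 CPM (8, 7 and 7 of 8 higher). At day 1 they were 71.1, 70.0 and 66.9 CPM against 69.8, 48.9 and 65.5 CPM (4, 6 and 5 of 8 higher). Over the 7 conditions they ranged over 46.6 to 188, 48.9 to 133 and 23.9 to 128 CPM. The 8 neutrophil markers summed to 313 against 316 CPM, 135 against 180.4 CPM and 151 against 256 CPM at days 1, 7 and 14. Of these, 3, 1 and 2 of 8 were higher. The 8 monocyte markers summed to 503 CPM in entospletinib, day 1 against 1468 CPM in vehicle, day 1 (0 of 8 higher), 620.2 against 667 CPM at day 7 (4 of 8 higher) and 333 against 557 CPM at day 14 (5 of 8 higher). The 8 B cell markers summed to 123 against 103 CPM at day 1, 306 against 205 CPM at day 7 and 370 against 262 CPM at day 14, with 7 of 8 higher at each day. The 8 endothelial cell markers summed to 133 against 105 CPM, 97.6 against 55.0 CPM and 138 against 95.3 CPM, with 7, 8 and 7 of 8 higher. The 5 red blood cell genes summed to 62.6 against 3.71 CPM at day 14 (5 of 5 higher) and to 65.9 against 49.2 CPM at day 1 (4 of 5 higher). The part of these in the member share was not tested. Without macrophage-like cells that held 2 or more markers of another class, the log2 ratio was 0.40 at day 1, and at days 7 and 14 it stayed within 1 SD of the values above.

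The level against which a share is read also moved. The median gene of 6578 had log2 ratios of entospletinib over vehicle of 0.01, 0.35 and 0.10 at days 1, 7 and 14. Relative to the median gene, the members were higher by 0.58, 0.022 and 0.55 on the log2 scale. Under TMM scaling, which centers on genes of moderate change, their ratios were 0.47, -0.067 and 0.33. At day 7 the members were therefore close to the median gene, and their direction turned under TMM.

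Counted one by one, members with a mean of at least 20 CPM were compared as log2 ratios of CPM with 1 CPM added. With entospletinib at day 1, all 78 were higher than with vehicle, as were 3366 of 6578 genes. Of the 78, 44 were higher by over 1.5-fold, where 5.64% of the 6578 genes passed that fold. At day 7, 77 were higher, as were 5320 of 6578 genes. The fold was passed by 7 members, against 25.8% of all genes, so fewer members than genes in general passed it. At day 14, 76 were higher, as were 3940 of 6578 genes, and 42 members passed the fold, against 14.2% of all genes. No member was lower by over 1.5-fold at day 1, 7 or 14, where 6.64%, 5.81% and 8.94% of all genes were. The median member ratio was 0.60, 0.37 and 0.61. Higher at all 3 days were 75 of 78 members (96.2%) and 39.6% of all genes. Under TMM scaling 26 members were, with 75, 27 and 66 higher at days 1, 7 and 14. The median member ratio was then 0.48, -0.065 and 0.30, against -0.11, -0.079 and -0.21 over all genes. For TMM the share of all genes higher at all 3 days is not given, so the 26 cannot be set against genes in general.

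Between vehicle and control, 7 of 78 members were higher by over 1.5-fold at day 1, below the 18% of all genes that were, and 0 at days 7 and 14, where 7.91% and 9.32% of all genes passed. The 7 were *Rpl7a* (0.84), *Rpl36al* (0.75), *Rpl10* (0.73), *Rps2* (0.70), *Rps13* (0.70), *Rps9* (0.64) and *Rpl23a* (0.60), given as log2 ratios. No member was lower by over that fold at any day, against 20%, 23.1% and 13.1% of all genes. Above the control at all 3 days were 28 members (35.9%) and 21.8% of all genes. Under TMM scaling 66 members were. Their median log2 ratios were then 0.56, 0.36 and 0.22, against 0.25, 0.073 and 0.17 over all genes. The share of all genes above the control at all 3 days under TMM is not given, so the 66 cannot be set against genes in general.

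**Figure D3:**
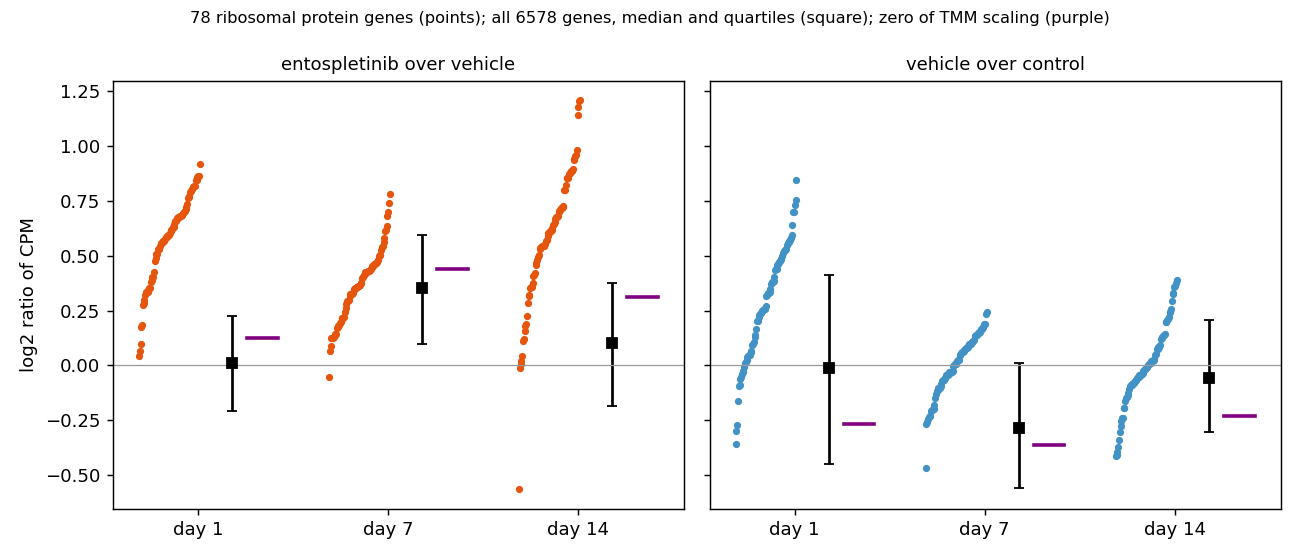
Log2 ratio of CPM (y axis) at days 1, 7 and 14 for entospletinib over vehicle and for vehicle over control. Points are 78 ribosomal protein genes, squares the median and quartiles of 6578 genes, and the purple mark is where TMM scaling puts zero; with entospletinib the member medians were 0.60, 0.37 and 0.61.

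The members did not all have the same ratio. Relative to the summed members, 18 were above them at all 3 days, 21 below at all 3 days and 39 on both sides. By the rule for named genes, ranked by the day with the smallest gap, the 5 that stood furthest above were *Rpl21*, *Rps21*, *Rplp1*, *Rps27* and *Rps23*. *Rpl21* had 327, 265 and 392 CPM in the entospletinib pools of days 1, 7 and 14 and 172, 172 and 173 CPM in the vehicle pools, log2 ratios of 0.92 ± 0.10, 0.62 ± 0.10 and 1.18 ± 0.11. *Rps21*, a small protein of the small subunit, had 129, 90.8 and 123 CPM against 70.4, 59.1 and 52.8 CPM. *Rps27* had 81.7, 57.0 and 62.2 CPM against 46.0, 32.7 and 33.9 CPM. The entospletinib pools of these 3 genes lay above all vehicle pools. They were named for high ratios in these same pools, and the share of all genes without overlap is not given, so this adds no support.

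Ranked in the same way, the 5 furthest below were *Rpl3*, *Rplp0*, *Rpl29*, *Rpl10a* and *Rps6*. *Rpl3*, which lies near the peptidyl transferase center, had 158, 114 and 122 CPM with entospletinib against 130, 109 and 120 CPM with vehicle, log2 ratios of 0.28 ± 0.07, 0.06 ± 0.12 and 0.02 ± 0.16. The last 2 were within their technical spread. *Rps6*, the substrate of the S6 kinases, had 36.4, 31.7 and 35.4 CPM against 28.6, 28.0 and 35.7 CPM, and the pools overlapped. *Rpl10*, which joins the large subunit late in its assembly, had 45.2 CPM in entospletinib, day 14 and 67.3 CPM in vehicle, day 14, a log2 ratio of -0.56 ± 0.29 that was the lowest of the members with at least 20 CPM. Summed with its copy *Rpl10-ps3* the ratio was -0.41.

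The lateral stalk, which recruits the elongation factors, is made of RPLP0 with RPLP1 and RPLP2 bound to it. Its genes differed from each other. *Rplp1* had log2 ratios of 0.84 ± 0.05, 0.58 ± 0.10 and 0.95 ± 0.13 and *Rplp2* of 0.74 ± 0.04, 0.46 ± 0.10 and 0.94 ± 0.08, while *Rplp0* had 0.34 ± 0.05, -0.05 ± 0.16 and 0.22 ± 0.18. *Rplp0* had 142, 88.2 and 100.2 CPM in the entospletinib pools and 113, 91.4 and 85.6 CPM in the vehicle pools. *Rpsa*, also known as the laminin receptor, had ratios of 0.70 ± 0.07, 0.13 ± 0.15 and 0.54 ± 0.08.

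Of the paralog pairs, *Rpl39l*, *Rpl10l* and *Rpl3l*, whose proteins replace RPL39 and RPL10 in the male germ line and RPL3 in muscle, had means under 1 CPM. *Rpl22* (84.2 CPM) and *Rpl22l1* (15.5 CPM) were both detected, with ratios of 0.80, 0.48 and 0.57 for *Rpl22* and of 0.24, 0.45 and 0.91 for *Rpl22l1*. *Rps27l*, a target of p53, had a mean of 17.4 CPM. It was 23.2 CPM in vehicle, day 1 and 34.1 CPM in entospletinib, day 1, against 11.4 to 16.3 CPM in the other 5 conditions, so both day 1 pools were above the rest. With entospletinib its ratio to vehicle reached 0.54 ± 0.18 at day 1 and lay near or within the technical spread at days 7 and 14 (0.36 ± 0.33 and 0.12 ± 0.31).

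The share differed between cell classes. As a mean over the 7 conditions it was highest in T cell-like cells (1.31%, SD 0.461), B cell-like cells (1.17%, SD 0.338) and dendritic cell-like cells (1.17%, SD 0.232). NK cell-like (0.916%), monocyte-like (0.888%) and macrophage-like cells (0.782%) followed. Proximal tubule-like (0.661%), endothelial cell-like (0.589%) and loop of Henle-like cells (0.512%) came next, and neutrophil-like cells (0.430%) and distal tubule or collecting duct-like cells (0.409%) were lowest. T cell-like cells were highest in vehicle, day 1 and in the entospletinib pools only. In the control they had 0.949%, against 1.13% in dendritic cell-like cells. In vehicle, day 7 they had 0.872%, against 0.917% in B cell-like and 0.906% in dendritic cell-like cells. In vehicle, day 14 they had 0.786%, against 0.881% in dendritic cell-like cells. A two-sided exact sign-flip permutation test over the 7 conditions was run on the 10 neighbor pairs in the order of the means. NK cell-like cells were below dendritic cell-like cells in 7 of 7 conditions, by 0.252 percentage points (exact p = 0.0156, the smallest the permutation test can give, adjusted p = 0.156). No neighbors differed after adjustment over the 10 pairs. A pair that alone reached the smallest p could not get an adjusted p below 0.156. The neighbors were also picked by the order of these same shares, which favors small gaps. Whether neighbors differ was therefore not decided by this test. Stroma-like cells (146 in all) were left out.

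**Figure D4:**
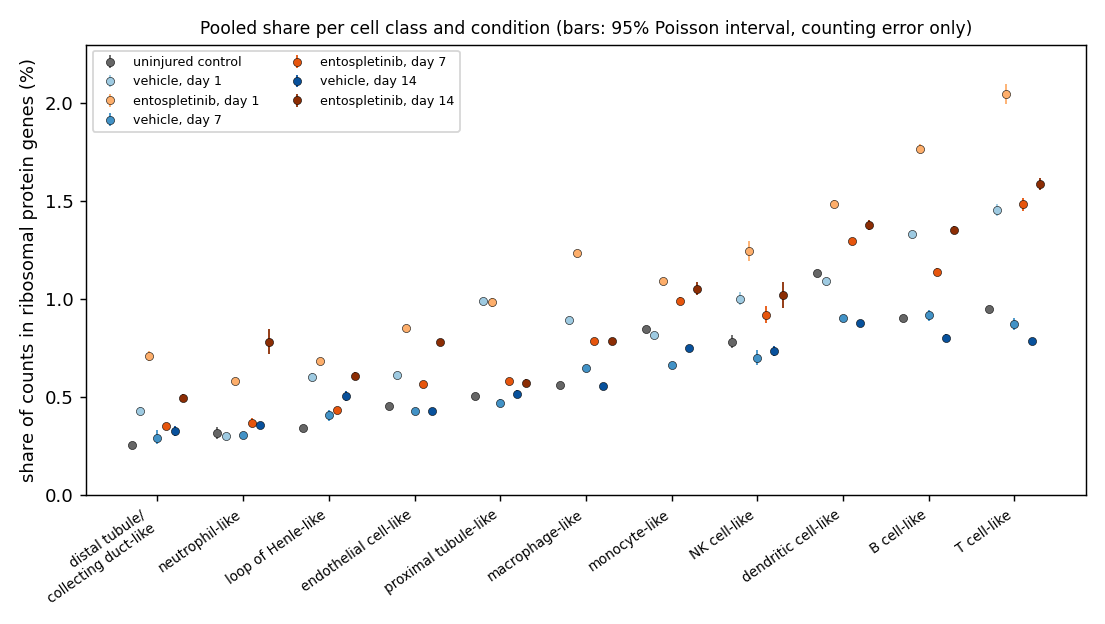
Share of counts in the ribosomal protein genes (%, y axis) per cell class (x axis) and condition, with 95% Poisson intervals that cover counting error only. Means over the 7 conditions run from 0.409% in distal tubule or collecting duct-like cells to 1.31% in T cell-like cells.

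Within classes the share was mostly higher with entospletinib. Of the 9 classes with at least 50 cells in every condition, 8 were higher at day 1, 9 at day 7 and 9 at day 14, with median log2 ratios of 0.45, 0.39 and 0.65. The exception was the proximal tubule-like class at day 1 (0.985% with entospletinib, 0.989% with vehicle). In T cell-like cells the share was 2.05%, 1.49% and 1.59% with entospletinib against 1.46%, 0.872% and 0.786% with vehicle, log2 ratios of 0.49 ± 0.20, 0.77 ± 0.21 and 1.02 ± 0.10. Dendritic cell-like cells had 1.49%, 1.30% and 1.38% against 1.09%, 0.906% and 0.881%, log2 ratios of 0.45 ± 0.17, 0.52 ± 0.16 and 0.65 ± 0.04. In neutrophil-like cells the ratio was 0.96 ± 0.15 at day 1, and at days 7 and 14 only 136 and 68 cells with entospletinib gave 0.28 ± 0.62 and 1.12 ± 1.03. Weighted to 1 fixed make-up of the 9 classes, the log2 ratios of days 1, 7 and 14 were 0.45, 0.38 and 0.63, and for the gated cells without that weighting 0.62, 0.43 and 0.67.

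Single members could be tested over the 3 same-day pairs, with edgeR's quasi-likelihood test on counts summed per pool, the day as a block and TMM scaling. In all cells 0 of 84 members passed an adjusted p of 0.05, where 2.17% of 19041 genes were called higher. At an unadjusted p under 0.05 there were 11 members (13.1%) against 29.3% of all genes, DESeq2 called 3 higher (3.57%) against 8.04% of all genes, and the smallest edgeR adjusted p was 0.0634 for *Rps27*. The fitted log2 fold change was positive for 72 of 84 members, with a median of 0.22 against -0.03 over all genes. In macrophage-like cells 0 of 83 passed, against 1.38% of genes called higher, with 27 (32.5%) at an unadjusted p under 0.05 against 20.98% of all genes, 4 (4.82%) called higher by DESeq2 against 1.47% of all genes, and a smallest adjusted p of 0.0530 for *Rpl37a*. Without day 7, 13 of 83 members were called in macrophage-like cells, where 106 of 15404 genes were called higher.

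Among the T cell-like cells 10 of 80 members rose, where 0.211% of 7110 genes were called higher. *Rplp2* had 371, 277 and 244 CPM in the entospletinib pools of days 1, 7 and 14 against 218, 106 and 96.4 CPM in the vehicle pools, so the pools did not overlap. Its log2 fold change was 1.13 (SE 0.16, adjusted p = 0.0206, higher at 3 of 3 days). *Rpl12*, a protein at the base of the stalk, had 430, 326 and 337 CPM against 249, 139 and 120 CPM, a log2 fold change of 1.15 (SE 0.17, adjusted p = 0.0225). *Rplp1*, *Rps26*, *Rpl13*, *Rpl35a*, *Rps18*, *Rps12*, *Rps3a1* and *Rps23* were the other 8, with log2 fold changes of 0.82 to 1.32 and adjusted p-values of 0.0330 to 0.0476. Some values rest on few counts. In vehicle, day 7, with 108 T cell-like cells, the 10 called members had from 9 (*Rpl35a*) to 70 counts (*Rps12*). The calls depended on the days used, with 41 members called without day 1, 0 without day 7 and 7 without day 14. In the same order, 122 of 6559, 0 of 6954 and 16 of 6044 genes were called higher. Without the day block there were 0 calls among members, and 0 of 6544 genes were called higher. The pools of *Rpl13* and *Rps18* overlapped between treatments, and the share of all genes without overlap is not given.

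In dendritic cell-like cells 18 of 81 members rose, where 0.657% of 10202 genes were called higher. *Rps21* led with 158, 137 and 160.3 CPM against 101, 74.8 and 71.3 CPM, a log2 fold change of 0.79 (SE 0.13, adjusted p = 0.0138). *Rpl37a*, *Rps9* and *Rpl21* followed with 0.75, 0.62 and 0.71. All 18 were higher at 3 of 3 days, with fold changes of 0.53 to 0.79 on the log2 scale. Of the calls, 6 were shared by the T cell-like and dendritic cell-like cells, 60.0% of the former and 33.3% of the latter, namely *Rplp1*, *Rplp2*, *Rpl12*, *Rpl13*, *Rpl35a* and *Rps23*. Without day 1 there were 8 calls in dendritic cell-like cells, without day 7 there were 0 and without day 14 there were 13. Without the day block there were 0. In the same order, 103 of 9612, 0 of 9991, 43 of 9853 and 0 of 9685 genes were called higher. Both classes were shallower with entospletinib at all 3 days. The median counts per cell at days 1, 7 and 14 were 1701.5, 2137 and 945 with entospletinib against 2667, 2912 and 2092 with vehicle in T cell-like cells. In dendritic cell-like cells they were 3385, 4073.5 and 1848 against 5102.5, 4660 and 3891. The part of depth in these calls was not tested.

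In neutrophil-like cells *Rps12* was the only one of 81 members called (log2 fold change 1.00, SE 0.29, adjusted p = 0.0250), where 0.943% of genes were called higher. Its entospletinib values at days 7 and 14 rest on 29 and 30 counts. Of the 81, 78 had a positive fold change (median log2 0.66), and 36 (44.4%) had an unadjusted p under 0.05 against 11.4% of all genes. No member was called in neutrophil-like cells by DESeq2, without the low-count filter, without the day block, without day 1 or without day 14. Without day 7, 4 were called. In the same order, 19 of 6164, 48 of 26910, 0 of 9520, 109 of 8236, 3 of 10453 and 33 of 10092 genes were called higher. In B cell-like cells *Rps23* was the only call among 81 (0.97, SE 0.14, adjusted p = 0.0439), where 0.0604% of genes were called higher. There too 78 were positive (median log2 0.46), and 56 (69.1%) had an unadjusted p under 0.05 against 10.2% of all genes. Without day 1 or without the day block there was no call among members in B cell-like cells. In these fits 4 of 9108 and 0 of 9391 genes were called higher. Without day 7 there were 32 member calls, where 121 of 9806 genes were called higher. Monocyte-like, NK cell-like, endothelial cell-like and proximal tubule-like cells had 0 calls by edgeR, with 43, 14, 54 and 10 members (53.1%, 19.2%, 65.9% and 12.3%) at an unadjusted p under 0.05, where 11.1%, 8.59%, 9.06% and 7.86% of all genes were, and DESeq2 was not run for them. No member was called lower in any class. Whether the change differed between classes was not tested.

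**Figure D5:**
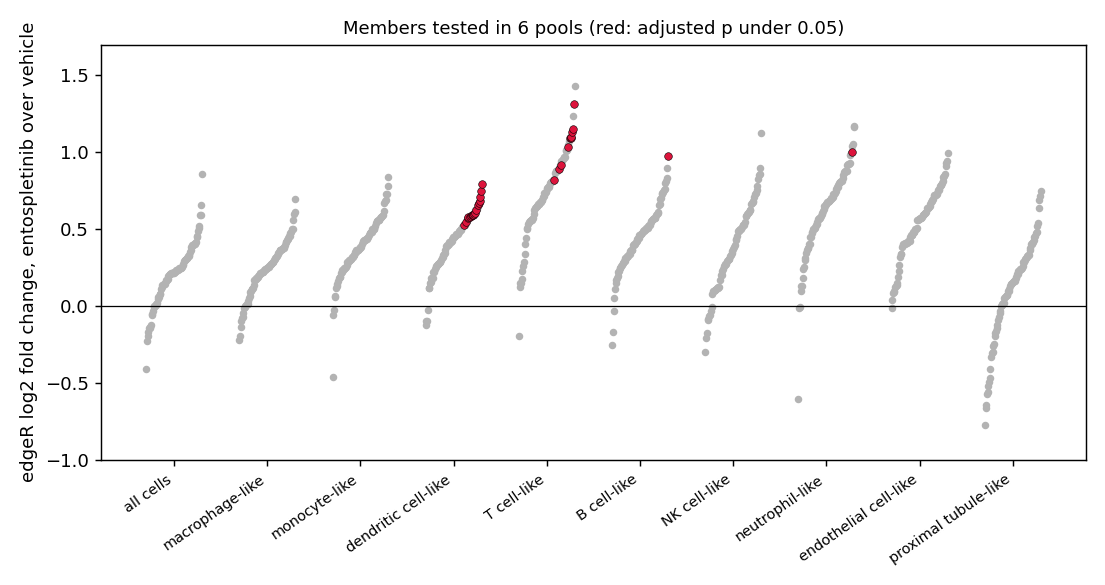
edgeR log2 fold change of entospletinib over vehicle (y axis) for each tested ribosomal protein gene in all cells and in 9 cell classes (x axis), over 6 pools in 3 same-day pairs. Members with an adjusted p under 0.05 are red: 10 in T cell-like, 18 in dendritic cell-like, 1 in neutrophil-like and 1 in B cell-like cells.

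Classes also differed in the make-up of the member counts. By CPM, *Rps27* was highest in T cell-like (134 CPM) and B cell-like cells (132 CPM) and lowest in distal tubule or collecting duct-like cells (17.3 CPM). Of every 1000 member counts it made up 11.2 in B cell-like and 10.2 in T cell-like cells. It made up 4.23 in distal tubule or collecting duct-like cells and the least, 3.65, in proximal tubule-like cells. Its paralog *Rps27l* was highest in proximal tubule-like cells (33.4 CPM), where *Rps27* had 24.1 CPM, and had 9.90 CPM in T cell-like cells. *Rpl13a* had 626 CPM in the T cell-like class, 47.7 of every 1000 member counts, and 214 CPM or 27.4 of every 1000 in the macrophage-like class. *Rpl10* made up 4.07 of every 1000 member counts in T cell-like and 9.60 in monocyte-like cells. *Rps4l* was 10.7 CPM in endothelial cell-like and 0.113 CPM in T cell-like cells, with the reservation about *Tmtc1* given above.

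Cells with over 1.5% of their counts in members were counted, since a limit of that size was part of the study's processing. The control had 3.73% of them (exact 95% interval 3.39 to 4.10). The vehicle pools had 6.35%, 3.73% and 2.86% at days 1, 7 and 14, and the entospletinib pools 23.5%, 8.53% and 19.6%. Of T cell-like cells, 69.1% (61.1 to 76.3) in entospletinib, day 1 and 43.9% (37.2 to 50.7) in vehicle, day 1 were over it, and of neutrophil-like cells 91 of 2368 and 41 of 8192. With every cell thinned to 500 counts the control had 6.15%, the vehicle pools 9.72%, 5.85% and 5.84%, and the entospletinib pools 26.1%, 12.8% and 20.9%. Cells under 500 counts were left out, 909 of them in entospletinib, day 14. With that limit applied to cells, the log2 ratio of the member share in all cells was 0.32, 0.25 and 0.28.

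Other genes of translation were set beside the members as lists, of which only genes with at least 20 CPM were counted. Over all genes 39.6% were higher at all 3 days, with medians of 0.01, 0.35 and 0.10, as given above. Of 18 measured translation genes (of 19) that also carry a TOP element, 11 were higher with entospletinib at all 3 days, with median log2 ratios of 0.16, 0.20 and 0.19. The most abundant, *Eef1a1*, which brings aminoacyl-tRNA to the ribosome, had ratios of -0.05, -0.07 and -0.32, and *Pabpc1*, which binds poly(A) tails, 0.10, -0.11 and -0.31. No gene of this list passed 1.5-fold. Of 12 measured ribosome biogenesis genes (of 20), 8 were higher at all 3 days (medians 0.21, 0.30 and 0.24), among them *Ncl*, encoding nucleolin, with 0.46, 0.32 and 0.37. The 11 measured mTOR and TOP control genes (of 16) had medians of -0.04, 0.30 and -0.05, and *Larp1* had 0.09, 0.30 and -0.10. At day 7 the medians of these 3 lists were below that of all genes. Of 78 mitochondrial ribosomal protein genes, 9 reached 20 CPM, and 7 of these were higher at all 3 days (medians 0.21, 0.54 and 0.34).

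Of 111 nuclear-encoded respiratory chain genes, 44 reached 20 CPM, and these 44 were higher at all 3 days, with medians of 0.43, 0.67 and 0.92. *Cox4i1*, a subunit of cytochrome c oxidase, had 0.62, 0.72 and 1.23. They also followed well depth, with a negative slope in 44 of 44 and a median of -0.73. Short abundant mRNAs of other functions, with a median slope of -0.64 in 12 genes, had median ratios of -0.08, -0.07 and -0.17, and *Actb* had -0.50, -0.06 and -0.65. *Cox4i1* is in both lists. The quartiles of their ratios lay on both sides of 0 at each day.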

How the data were processed

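Transcripts were counted in single cells of 7 pools of kidney cells (control, and vehicle or entospletinib at days 1, 7 and 14) with Parse Evercode chemistry. The authors deposited a matrix of raw counts, which are not normalized and give transcripts of each gene in each cell, made with the Parse pipeline and, per the labels, the mm10 genome. Their annotation release is not given in the sources used here. Condition, well and sublibrary of a cell came from the deposited cell table, whose transcript count equaled the matrix sum for 120281 of 120281 barcodes. The deposited samples hold cells of all conditions and were not used as groups.

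Cells had more than 300 genes, fewer than 20000 counts and less than 25% mitochondrial counts. Counts were summed per pool, class, sublibrary or well, and shares and CPM were taken of those sums. For ratios of single genes 1 CPM was added, and 0.5 counts within sublibraries. With 1 pool per condition no test was made of a single comparison. Treatment was tested over 3 same-day pairs by edgeR 4.0.16 (glmQLFit, glmQLFTest, TMM, Benjamini-Hochberg over all genes tested) with DESeq2 1.42.0 as an alternative, in R 4.3.3, and single values by exact permutation. The days stand in for replicates there, and so p-values cover the spread between these 6 pools. Scripts ran in Python 3.11.15 and were tested on simulated data. Intervals cover counting error only. Positions and exon lengths came from GENCODE M21 and start windows from RefSeq, both on GRCm38, because the deposited files give no coordinates.

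The members, the marker and comparison lists and the tests were chosen with earlier results of these data known. Named genes were the 10 members highest in CPM, the 5 furthest above and the 5 furthest below the summed members with the same sign at all 3 days and ranked by the day with the smallest gap, the stalk, *Rpsa* and paralog genes, and the most abundant genes of each comparison list. A member that the rule names is not reported here. The members called by edgeR, the 7 past 1.5-fold against the control and those named by cell class were chosen after their values were seen. Alternatives changed the limits on cells, the scaling, the gate, the count filter and the fold, and left out sublibraries or days. The spread over wells, equal well depth, scaling to the median gene or by TMM of the share, and the alternatives for 4 classes were chosen after seeing the data.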

Additional observations from a re-analysis of the deposited data

Results flagged for a closer look

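The member share of 1 portion stood apart from the others of its pool in 8 of 28 sets of sublibraries or wells, by Dixon's criterion at 95%, which chance alone meets in about 1 in 20 sets. Sublibrary s7 was the highest of 8 in 6 of them. Its share was 0.685% in the control, 0.836% in vehicle, day 1, 0.698% in vehicle, day 14, 1.28% in entospletinib, day 1 and 1.12% in entospletinib, day 14, all in all cells, and 0.627% in macrophage-like cells of vehicle, day 14. It held cells of every condition, and its median of 2237.5 counts per cell lay within the 1959.5 to 2369 of the other 7. Leaving it out changed no direction.

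The remaining 2 sets were those of entospletinib, day 14, in which well C3 was the highest of 7 with 1.32% in all cells and 1.11% in macrophage-like cells. Cells of this well had a median of 768 counts.

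Barcodes outside the limits on genes, counts and mitochondrial share also held member transcripts, and their share was 0.272% in the control pool. Above the 95% interval of that value, which covers counting error only, were vehicle, day 1 (0.457%), vehicle, day 14 (0.548%), entospletinib, day 1 (0.658%), entospletinib, day 7 (0.329%) and entospletinib, day 14 (0.532%), while vehicle, day 7 had 0.239%. The wells of the control ranged from 0.235% to 0.318% and those of entospletinib, day 7 from 0.244% to 0.430%, so these overlapped, while all wells of the other 4 lay at 0.369% or more. The entospletinib barcodes were above the vehicle barcodes at days 1 and 7 and below them at day 14, a difference that was not tested. Mitochondrial transcripts, which are part of the total, differed widely in these barcodes. They took 45.8% of counts in the control, 58.1% in vehicle, day 7 and 48.7% in entospletinib, day 7. In the other 4 pools they took 18.6% to 29.7%. The part of this in the member shares was not tested.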

How the results depend on the processing

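Entospletinib over vehicle, as a log2 ratio of the member share, stayed positive at days 1, 7 and 14 with all barcodes, with more than 500 genes per cell, with the ribosomal limit, as a mean over wells, with mitochondrial counts out of the total and without any 1 sublibrary. It turned with equal well depth at day 14 (all cells -0.40, macrophage-like -0.58) and, at day 7, with TMM scaling (all cells -0.067) or against the median gene (macrophage-like -0.073). Values that moved by more than the technical SD were, in all cells, 0.32, 0.25 and 0.28 with the ribosomal limit at days 1, 7 and 14, 0.17 and 0.42 with all barcodes at days 7 and 14, 0.59 with more than 500 genes at day 14, 0.26 and 0.45 at equal well depth at days 1 and 7, 0.022 and 0.55 against the median gene at days 7 and 14, and 0.47 and 0.33 with TMM at days 1 and 14. In macrophage-like cells they were 0.20 and 0.36 with the ribosomal limit at days 1 and 14, 0.53 with all barcodes, 0.40 without cells holding other markers and 0.12 at equal well depth at day 1, and 0.52 and 0.41 against the median gene at days 1 and 14. With equal class weights the standardized ratio was 0.41 at day 1 and 0.46 at day 7.

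Vehicle over control in all cells was near 0 at days 7 and 14, and its sign there is not firm. At day 7 it was -0.000136 with mitochondrial counts out of the total, -0.0044 to 0.017 without 1 sublibrary each, -0.15 at equal well depth, 0.22 with all barcodes, 0.29 against the median gene and 0.37 with TMM. At day 14 it was -0.21 at equal well depth, 0.44 with all barcodes, 0.095 with the ribosomal limit, 0.075 against the median gene and 0.25 with TMM. At day 1 it was 0.53 with all barcodes, 0.21 without mitochondrial counts or at equal well depth and 0.53 with TMM. Over all barcodes, mitochondrial transcripts took 25.0% of counts in the control. In the vehicle pools of days 1, 7 and 14 they took 8.71%, 18.5% and 7.82%, and their part in these ratios was not tested. In macrophage-like cells vehicle over control was 0.58 with all barcodes, 0.79 without cells holding other markers and 0.54 against the median gene at day 1, and 0.26 with all barcodes, 0.044 at equal well depth and 0.50 against the median gene at day 7. At day 14 it was 0.050 with all barcodes, 0.013 with the ribosomal limit, 0.056 against the median gene and -0.24 at equal well depth.

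Members higher by over 1.5-fold with entospletinib at days 1, 7 and 14 were 19, 0 and 9 with TMM, and 1 was lower at day 14. They were 0, 0 and 4 at 2-fold and 23, 4 and 23 in macrophage-like cells. The share of all genes past the fold is not given for these settings, so these counts cannot be set against genes in general. For edgeR, no low-count filter gave 11 member calls in all cells, 6 in macrophage-like and 0 in neutrophil-like cells. It gave 8 in dendritic cell-like, 30 in T cell-like and 16 in B cell-like cells. In the same order, 2016 of 36766, 404 of 32100, 48 of 26910, 75 of 24756, 68 of 21302 and 141 of 23400 genes were called higher. DESeq2 gave 3, 4, 0, 9, 7 and 2 member calls in the same order. It called 1383 of 17195, 176 of 11941, 19 of 6164, 25 of 5257, 9 of 1596 and 8 of 9938 genes higher. With at least 3 markers, macrophage-like cells had 1 member call, where 174 of 14667 genes were called higher. Without a day each, member calls ranged from 0 to 13 in macrophage-like, 0 to 4 in neutrophil-like and 0 to 13 in dendritic cell-like cells. They ranged from 0 to 41 in T cell-like and 0 to 32 in B cell-like cells. Over all genes, those called higher ranged over 106 to 160, 3 to 109, 0 to 103, 0 to 122 and 4 to 121 in the same order. Without the day block there were 0 member calls in all of these, and no gene at all was called higher. The cause of these changes was not tested. Thinned to 500 counts, cells over 1.5% came to 6.15% of the control, 9.72%, 5.85% and 5.84% of the vehicle pools and 12.8% in entospletinib, day 7. The labels give no replicate numbers, and the same-day pools were the only pairs.

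With 1 pool per condition, differences between mice cannot be told apart from those between conditions, and sublibraries and wells show technical error only. Some class values rest on few cells, such as 68 neutrophil-like cells in entospletinib, day 14 and 76 NK cell-like cells in vehicle, day 7.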
